A study of Mus musculus with 7 samples.

Results

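The MHC class II genes and Ciita are 10 genes of a table of 57010, taken as the rows whose gene name equals H2-Aa, H2-Ab1, H2-Eb1, H2-Eb2, H2-DMa, H2-DMb1, H2-DMb2, H2-Oa, Cd74 or Ciita, each of which matched 1 row. They were measured in Tim4+ resident macrophages from the peritoneal fluid of C57BL/6 mice, 12 days after injection of m204 MTO (4 libraries) and in steady state with no such injection named in the labels (3 libraries). The title of the series concerns peritoneal colorectal cancer, and the labels do not spell out MTO or give the age of the mice. The cells were sorted by flow cytometry with antibodies to Tim4, CD11b and MHC class II, so the product of several of these genes was stained in the sort, but the labels do not say how the class II gate was set. The protocol speaks of 3 biological replicates per condition, whereas the titles number 4 for day 12. P-values below measure the spread between these libraries.

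MHC class II molecules present peptides from material taken up by a cell to CD4+ T cells. An alpha and a beta chain (H2-Aa with H2-Ab1 for the A molecule, an E alpha chain with H2-Eb1 for the E molecule) are assembled on the invariant chain, which Cd74 encodes. The invariant chain is then degraded by proteases, and the chaperone H2-DM exchanges its last fragment for other peptides, a step that H2-O restrains. Ciita encodes the co-activator that switches the class II genes on. It does not bind DNA itself but docks on factors (RFX, CREB and NF-Y) that sit on the X, X2 and Y boxes of class II promoters. Large peritoneal macrophages are known for low class II levels at rest.

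Of the 7 members with a promoter sequence at hand, 4 carried an X box core followed by a Y box at a near-constant distance. The 120 bases that hold it are shown for these 4, with the same stretch of H2-Aa and of the related gene H2-Ob, which lacked the pair, for comparison. RefSeq promoters (build GRCm38.p6, 250 bases before to 50 after a start site) were at hand for 7 of the 10 members and not for H2-Ab1, Cd74 and Ciita. Each stretch runs 5′ to 3′ along the gene from 150 to 31 bases before its start. Capitals mark an X box core (AACNGATG), a Y box (ATTGG, or its reverse complement) or an X2 box (TGACGTCA).
H2-Aa, chr17:34287854-34287973, minus strand: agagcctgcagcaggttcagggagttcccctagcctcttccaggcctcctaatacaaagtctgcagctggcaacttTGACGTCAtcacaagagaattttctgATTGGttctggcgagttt
H2-Eb1, chr17:34305717-34305836, plus strand: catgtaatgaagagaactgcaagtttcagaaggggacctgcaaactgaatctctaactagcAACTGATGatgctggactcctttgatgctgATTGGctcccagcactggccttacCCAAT
H2-Eb2, chr17:34325525-34325644, plus strand: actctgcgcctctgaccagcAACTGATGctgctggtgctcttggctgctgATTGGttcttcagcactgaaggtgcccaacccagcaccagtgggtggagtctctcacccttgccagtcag
H2-DMb1, chr17:34153041-34153160, plus strand: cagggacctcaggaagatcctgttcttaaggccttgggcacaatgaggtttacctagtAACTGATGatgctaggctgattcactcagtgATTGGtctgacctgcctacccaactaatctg
H2-DMb2, chr17:34145099-34145218, plus strand: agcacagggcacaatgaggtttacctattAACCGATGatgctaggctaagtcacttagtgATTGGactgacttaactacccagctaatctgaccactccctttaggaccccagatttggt
H2-Ob, chr17:34238755-34238874, plus strand: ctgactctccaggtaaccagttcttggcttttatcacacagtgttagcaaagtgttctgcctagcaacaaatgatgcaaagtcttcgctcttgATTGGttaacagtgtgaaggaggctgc

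In H2-Eb1 and H2-Eb2 the first base of the X box core lay 30 bases before that of the Y box, and in H2-DMb1 and H2-DMb2 31 bases before it. Of 32851 RefSeq promoter windows of 300 bases searched on both strands, 762 (2.32%) held the X box core and 12289 (37.4%) the Y box. A core with a Y box 30 to 36 bases downstream stood in 5 windows (0.0152%), those of H2-DMb1, H2-DMb2, H2-Eb1, H2-Eb2 and BC051142. The core and the spacing were set after the members' sequences had been read. A longer form of the X box, of 11 letters, was searched first and stood in 318 windows (0.968%). It matched H2-Eb1, H2-Eb2, H2-DMb1 and H2-Oa but not H2-DMb2, and it had a Y box at that spacing in 4 windows (0.0122%), those of H2-DMb1, H2-Eb1, H2-Eb2 and the predicted gene Gm31108. H2-Aa held the X2 box, found in 588 windows (1.79%), and a Y box. The 2 windows at hand for H2-DMa held neither form of the X box, and any other start site of that gene was not searched. These matches describe the letters in the windows and are not measurements of binding.

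At day 12 the macrophages held many more transcripts of the class II genes than in steady state. Of the 10 members, 8 passed the filter on low counts. All 8 were higher at day 12 by edgeR's quasi-likelihood test at an adjusted p of 0.05, and 0 were lower. Over the 15981 genes tested, 3242 (20.3%) were called, 1616 (10.1%) higher and 1626 (10.2%) lower. The median log2 fold change of the 8 members was 3.75, against 0.00309 over all genes tested. In each of the 10 members, the 2 untested ones included, the lowest day 12 library was above the highest steady-state library, and 16.5% of the genes tested showed that order. Reads of the 10 members made up 0.402%, 0.235%, 0.247% and 0.559% of all counts in day 12 replicates 1, 2, 3 and 4, against 0.057%, 0.0179% and 0.0195% in steady-state replicates 1, 2 and 3. In such bulk samples, more cells that express a gene and more RNA of it per cell cannot be told apart.

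**Figure D1:**
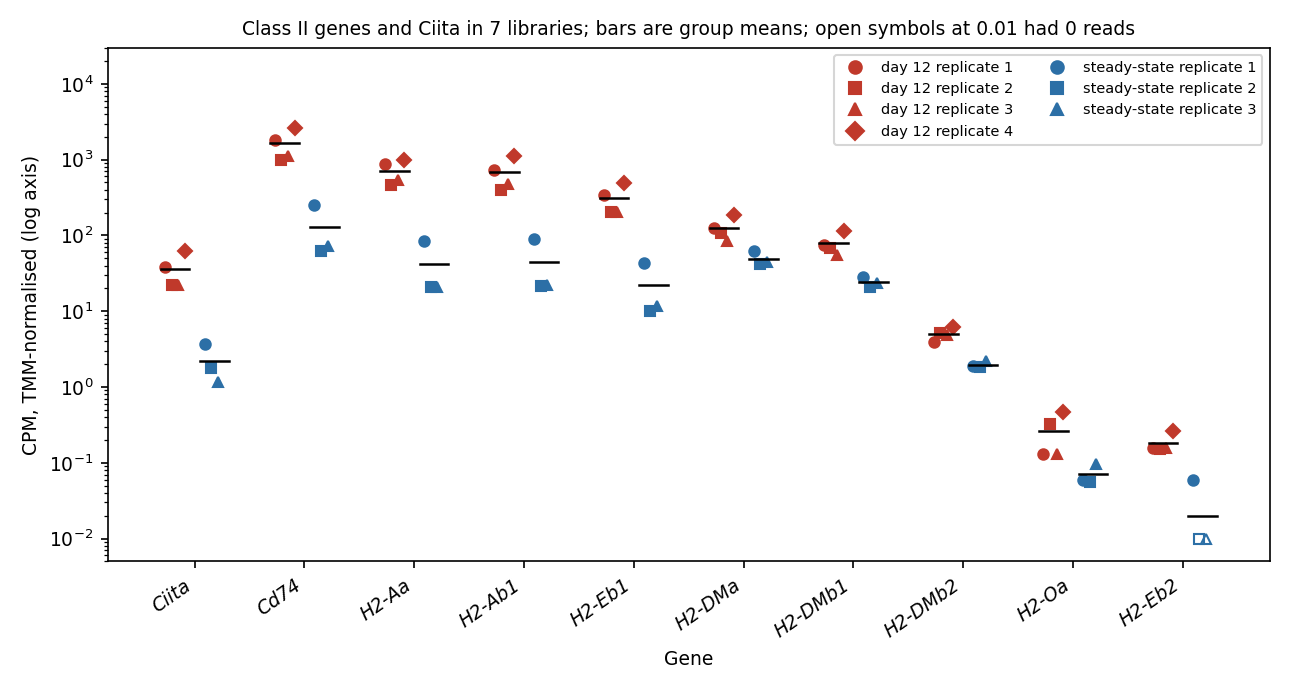
CPM, counts scaled to library size (TMM-normalised, log axis) of the 10 genes in each library, with the 4 day 12 libraries left of the 3 steady-state libraries and a bar at each group's mean; open symbols stand for 0 reads. In all 10 genes each day 12 library is above each steady-state library, and day 12 replicate 4 is the highest of its group.

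The libraries had total counts of 34578834 to 38586694 at day 12 and 32077050 to 36201021 in steady state, and a floor of 3 counts per library came to 0.0754 to 0.0958 CPM. The floors, and the intervals named as counting intervals, cover counting error only, whereas the intervals of fitted fold changes include the spread between libraries. Markers of large peritoneal macrophages were abundant in both groups. Their 12 genes, all tested, summed to 32876 to 33147 CPM at day 12 and 28638 to 30300.0 CPM in steady state. Most of this sum was Prg4 (10967.5 ± 566 CPM at day 12, 11816 ± 636 CPM in steady state) and Alox15 (9776 ± 710 CPM at day 12, 8645 ± 335 CPM in steady state), both not called. Of the 12 genes, 5 were called higher and 1 lower, against 10.1% and 10.2% of all genes tested. The lower one was Timd4, which encodes Tim4 (495 ± 114 CPM at day 12, 963 ± 80.5 CPM in steady state). Vsig4 was not called (228 ± 86.2 CPM at day 12, 451 ± 26.5 CPM in steady state, edgeR adjusted p = 0.0509).

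The activator Ciita (ENSMUSG00000022504, GRCm39 chromosome 16, 10297923 to 10346282, plus strand) had 37.9, 22.3, 22.2 and 62.3 CPM in day 12 replicates 1 to 4, against 3.73, 1.76 and 1.15 CPM in steady-state replicates 1 to 3. Its lowest day 12 library was thus 5.93 times its highest steady-state one, the widest gap among the members with reads in every library. The mean was 36.2 ± 18.9 CPM at day 12 and 2.22 ± 1.35 CPM in steady state (SD, n = 4 and 3), a log2 fold change of 4.02 (SE 0.57, 95% interval 2.67 to 5.37, edgeR adjusted p = 0.00321). Ciita overlaps Dexi on the opposite strand, and whether counting used strand is not stated in the labels. Dexi had 902 reads at day 12 and 715 in steady state, against 5309 and 225 for Ciita, and did not pass (log2 fold change -0.22, edgeR adjusted p = 0.504). Ciita is read from several promoters that differ between cell types, and counts per gene do not separate them.

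Cd74, the invariant chain and chaperone of nascent class II molecules (ENSMUSG00000024610, chromosome 18, 60936920 to 60945724, plus strand), was the most abundant member. It had 1808, 997, 1116 and 2640 CPM in day 12 replicates 1 to 4, against 250.8, 62.8 and 73.2 CPM in steady-state replicates 1 to 3. Steady-state replicate 1 stood apart from the other libraries of its group, at 3.69 times their mean, but below every day 12 library. The mean was 1640.04 ± 756 CPM at day 12 and 129 ± 106 CPM in steady state, with a log2 fold change of 3.67 (SE 0.66, 95% interval 2.10 to 5.23, edgeR adjusted p = 0.00910).

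H2-Aa, H2-Ab1 and H2-Eb1 moved with Cd74. H2-Aa, the alpha chain of the A molecule (ENSMUSG00000036594, chromosome 17, 34501718 to 34506797, minus strand), had 867, 463, 535 and 989 CPM in day 12 replicates 1 to 4, against 83.6, 20.8 and 21.1 CPM in steady-state replicates 1 to 3. The groups were far apart, since even the lowest day 12 library held 5.54 times as much as the highest of steady state. Its log2 fold change of 4.09 (SE 0.66, 95% interval 2.54 to 5.65, edgeR adjusted p = 0.00575) was the largest among the 8 members tested and ranked 119 among the 15981 genes.

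H2-Ab1, the beta chain that pairs with it (ENSMUSG00000073421, chromosome 17, 34476663 to 34488393, plus strand), had 723, 397, 479 and 1119 CPM in day 12 replicates 1 to 4, against 89.4, 21.4 and 22.4 CPM in steady-state replicates 1 to 3. Its libraries kept the order of Cd74 at day 12, with replicate 4 the highest and replicate 2 the lowest. The log2 fold change was 3.94 (SE 0.71, 95% interval 2.27 to 5.60, edgeR adjusted p = 0.00892).

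H2-Eb1, the beta chain of the E molecule (ENSMUSG00000060586, chromosome 17, 34524841 to 34535648, plus strand), had 344, 203.8, 206 and 488 CPM in day 12 replicates 1 to 4, against 43.6, 10.2 and 11.7 CPM in steady-state replicates 1 to 3. Here too steady-state replicate 1 was the high one, at 3.98 times the mean of the others. The log2 fold change was 3.83 (SE 0.67, 95% interval 2.24 to 5.42, edgeR adjusted p = 0.00824). H2-Ea, which encodes the E alpha chain and carries a known deletion in the C57BL/6 strain, had 0 reads in all 7 libraries.

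Steady-state replicate 1 set the size of these differences in part. Without it the log2 fold change was 5.11 for H2-Aa, 4.98 for H2-Ab1, 4.85 for H2-Eb1, 4.61 for Cd74 and 4.65 for Ciita, with edgeR adjusted p-values of 0.000472 to 0.00456. All 8 calls also held with each other library left out, with adjusted p-values up to 0.0477, for H2-DMa. That library was the highest of the steady-state group in 8 of the 10 members, and day 12 replicate 4 was the highest of its group in 10 of 10.

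**Figure D2:**
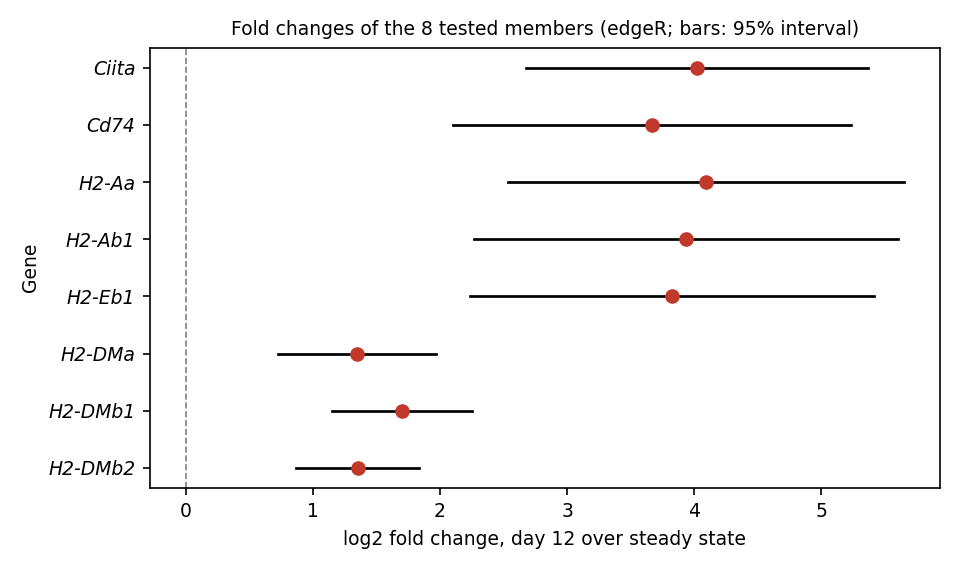
Log2 fold change, day 12 over steady state, of the 8 members tested with edgeR (points) with the 95% interval (bars). Ciita, Cd74 and the H2-Aa, H2-Ab1 and H2-Eb1 chains lie between 3.67 and 4.09, and the H2-DM genes between 1.35 and 1.70.

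The H2-DM genes, whose product loads peptides in the endosome, were also higher at day 12 but by less. H2-DMa, the alpha chain (ENSMUSG00000037649, chromosome 17, 34338515 to 34358075, plus strand), had 126, 107, 83.2 and 188 CPM in day 12 replicates 1 to 4, against 62.9, 41.5 and 44.2 CPM in steady-state replicates 1 to 3. The lowest day 12 library held 1.32 times as much as the highest of steady state, a narrower gap than for H2-Aa, H2-Ab1 and H2-Eb1. The log2 fold change was 1.35 (SE 0.27, 95% interval 0.72 to 1.97, edgeR adjusted p = 0.00923). H2-DMa overlaps Brd2 on the opposite strand, which had 26054 reads at day 12 and 16947 in steady state and did not pass (log2 fold change 0.05, edgeR adjusted p = 0.777).

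H2-DMb1, a beta chain of H2-DM (ENSMUSG00000079547, chromosome 17, 34372046 to 34379204, plus strand), had 75.2, 67.6, 56.0 and 116 CPM in day 12 replicates 1 to 4, against 28.7, 20.6 and 23.3 CPM in steady-state replicates 1 to 3. Its groups were separate, and it had the lowest p of the 8 members tested (log2 fold change 1.70, SE 0.25, 95% interval 1.15 to 2.25, edgeR adjusted p = 0.00169). H2-DMb2, the other beta chain gene (ENSMUSG00000037548, chromosome 17, 34362281 to 34370529, plus strand), was rarer, with 3.97, 5.17, 4.79 and 6.24 CPM in day 12 replicates 1 to 4, against 1.90, 1.82 and 2.20 CPM in steady-state replicates 1 to 3. It was the steadiest member within groups (log2 fold change 1.35, SE 0.22, 95% interval 0.87 to 1.84, edgeR adjusted p = 0.00253). The split of reads between both beta chain genes is uncertain, because 179 of the 100-base windows of their transcripts are shared, 11.3% of those of H2-DMb1 and 10.3% of those of H2-DMb2. No other pair among the members shared such a window.

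The remaining members were near the floor and did not enter the test. H2-Oa, the alpha chain of the H2-DM inhibitor H2-O (ENSMUSG00000024334, chromosome 17, 34311314 to 34314208, plus strand), had 5, 13, 5 and 16 reads in day 12 replicates 1 to 4, against 2, 2 and 3 reads in steady-state replicates 1 to 3. Per total count this was 3.804 times as many at day 12, with a 95% counting interval of 1.68 to 10.1. H2-Eb2, a second beta chain gene of the E region (ENSMUSG00000067341, chromosome 17, 34544639 to 34560386, plus strand), had 6, 6, 6 and 9 reads in day 12 replicates 1 to 4, against 2, 0 and 0 reads in steady-state replicates 1 to 3, a ratio of 9.22 (95% counting interval 2.32 to 80.0). With no filter on low counts neither passed (edgeR adjusted p = 0.142 for H2-Oa and 0.0834 for H2-Eb2). H2-Ob, the beta chain of H2-O, stood at 4.00 ± 1.08 CPM at day 12 and 5.26 ± 0.914 CPM in steady state and was not called (log2 fold change -0.39, edgeR adjusted p = 0.277).

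Per transcript length (RPKM, with lengths of the GENCODE M21 exon union) the order of the members differed between the groups. At day 12 Cd74 stood at 977 ± 450 RPKM, followed by H2-Ab1 (265 ± 126), H2-Aa (188 ± 67.0) and H2-Eb1 (160 ± 69.5), with H2-DMb1 (46.8 ± 15.5) and H2-DMa (36.6 ± 12.9) below them. In steady state Cd74 was again first at 76.8 ± 62.9 RPKM, while H2-Ab1 (17.3 ± 15.2), H2-DMb1 (14.4 ± 2.45), H2-DMa (14.4 ± 3.39), H2-Eb1 (11.2 ± 9.71) and H2-Aa (11.01 ± 9.53) lay within each other's spread. Ciita averaged 3.79 ± 1.98 RPKM at day 12 and 0.232 ± 0.142 RPKM in steady state.

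Ratios of raw counts between members within a library do not depend on normalisation, and 6 were compared between groups by exact permutation (two-sided), where 35 group assignments exist and the smallest possible p is 0.0571. No ratio could therefore pass 0.05. H2-DMa reads per H2-Ab1 read were 0.174, 0.270, 0.174 and 0.168 in day 12 replicates 1 to 4, against 0.704, 1.94 and 1.98 in steady-state replicates 1 to 3. The groups did not overlap (log2 difference -2.85, permutation p = 0.0571, adjusted p = 0.114). In steady-state replicates 2 and 3, then, H2-DMa had more reads than H2-Ab1, which was so in no day 12 library.

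Cd74 reads per H2-Ab1 read were 2.502, 2.51, 2.33 and 2.36 in day 12 replicates 1 to 4, against 2.81, 2.93 and 3.27 in steady-state replicates 1 to 3 (log2 difference -0.31, exact permutation p = 0.0571, adjusted p = 0.114). H2-DMb1 per H2-DMa was 0.597, 0.629, 0.673 and 0.617 in day 12 replicates 1 to 4, against 0.456, 0.497 and 0.526 in steady-state replicates 1 to 3 (log2 difference 0.35, exact permutation p = 0.0571, adjusted p = 0.114). These ratios were narrow within groups although the levels themselves varied widely. The ratios of H2-Aa, H2-Eb1 and Ciita to H2-Ab1 overlapped between groups, with log2 differences of 0.19, -0.10 and -0.10 (exact permutation p = 0.229, 0.229 and 0.8, adjusted p = 0.274, 0.274 and 0.8). The difference for Ciita was 0.18 without steady-state replicate 2, so its sign rests on that library.

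**Figure D3:**
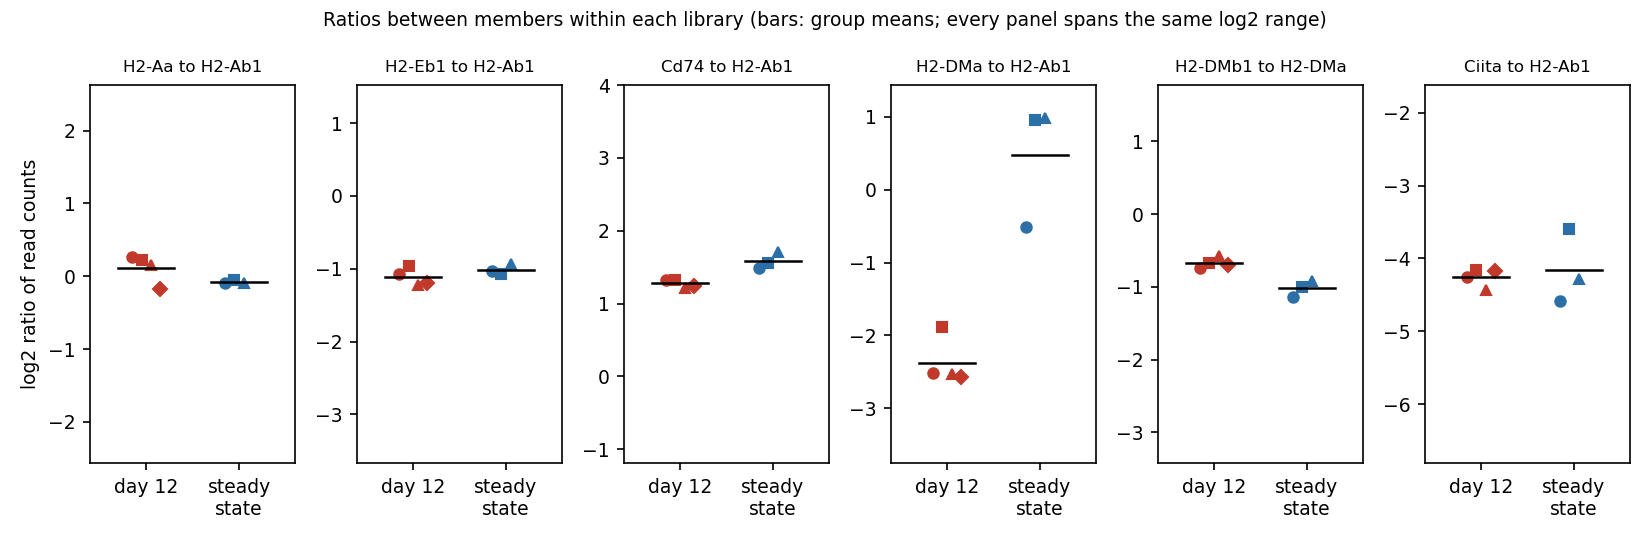
Log2 ratios of raw counts between members within each library, day 12 left of steady state, with 1 point per library (circle, square, triangle and diamond for replicates 1 to 4) and bars at group means. H2-DMa to H2-Ab1 averages -2.38 at day 12 and 0.48 in steady state on this scale, without overlap, and Ciita to H2-Ab1 overlaps between the groups.

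The lists of other class II pathway genes held, between them, calls in both directions, to be read against the 20.3% of all genes tested that were called. Genes named from here on that are not among the called ones with the lowest p of a list were chosen after their values were seen. Of a list of 14 transcription factors and other regulators of class II or Ciita, 0 were called higher and 1 lower, with a median log2 fold change of -0.22. Rfx5, the RFX subunit on the X box, stood at 33.3 ± 4.12 CPM at day 12 and 31.6 ± 1.75 CPM in steady state (log2 fold change 0.07, edgeR adjusted p = 0.718). Rfxap, Rfxank, Nfya, Nfyb, Nfyc and Creb1, which encode the other factors of the X, X2 and Y boxes, were likewise not called, with log2 fold changes of -0.50 to 0.11. The gene called lower was Zfp36l1, which encodes an RNA-binding protein and not a promoter factor (163 ± 22.7 CPM at day 12, 231 ± 11.8 CPM in steady state, log2 fold change -0.50, edgeR adjusted p = 0.0209). This call did not hold without day 12 replicates 1 or 2 (0.0663 and 0.0546) or any 1 steady-state replicate (0.0676 to 0.0955), and 4 genes of the list were called lower without day 12 replicate 4.

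Of 12 genes between the interferon gamma receptor and the Ciita promoter, 3 were called higher and 2 lower, with a median log2 fold change of 0.10. Irf1, a transcription factor induced by interferon gamma that acts on Ciita, had 254, 229, 149 and 386 CPM in day 12 replicates 1 to 4, against 104, 81.6 and 86.3 CPM in steady-state replicates 1 to 3 (log2 fold change 1.49, edgeR adjusted p = 0.00672). Replicate 4 was the highest day 12 library here as in the members. Socs1, an inhibitor of the same signal that lies close to Ciita on chromosome 16, averaged 4.55 ± 3.43 CPM at day 12 and 0.808 ± 0.271 CPM in steady state (log2 fold change 2.49, edgeR adjusted p = 0.0165).

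In the other direction, Irf8, a transcription factor of mononuclear phagocytes, fell to 13.6 ± 6.03 CPM at day 12, against 126 ± 12.96 CPM in steady state (log2 fold change -3.21, edgeR adjusted p = 0.000612). Ifngr1, the ligand-binding receptor chain, averaged 112 ± 12.6 CPM at day 12 and 158 ± 16.8 CPM in steady state (log2 fold change -0.50, edgeR adjusted p = 0.0189). Some of these calls were lost with 1 library left out. Calls over the whole table also fell in such fits, from 1616 higher and 1626 lower to 857 and 904 without steady-state replicate 3. Without steady-state replicate 2 or 3 the adjusted p was 0.0733 or 0.0685 for Socs1 and 0.0600 or 0.0979 for Ifngr1, and 1 gene of the list was called higher and 1 lower each time. Socs1 missed with limma-voom as well (0.0507), and its log2 fold change was 1.84 without day 12 replicate 4. Ifngr1 also missed without day 12 replicate 2 (0.0504).

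Of 11 genes of endosomal proteolysis and reduction, 2 were called higher and 2 lower, with a median log2 fold change of 0.10. Ctsl, a protease that degrades the invariant chain in thymic epithelium, averaged 438 ± 67.4 CPM at day 12 and 177 ± 34.0 CPM in steady state (log2 fold change 1.31, edgeR adjusted p = 0.00104). Lgmn, an asparagine-specific endopeptidase, averaged 343 ± 26.8 CPM at day 12 and 649 ± 92.0 CPM in steady state (log2 fold change -0.92, edgeR adjusted p = 0.00135). Cst3, a secreted inhibitor of cathepsins, was lower too (741 ± 113 CPM at day 12, 1198 ± 69.9 CPM in steady state, log2 fold change -0.69, edgeR adjusted p = 0.00739). Ctss, which encodes another protease that degrades the invariant chain, was not called (1457 ± 47.9 CPM at day 12, 1357 ± 42.8 CPM in steady state, adjusted p = 0.530 in edgeR). The other gene called higher, the cathepsin gene Ctsh (395 ± 6.11 CPM at day 12, 318 ± 18.1 CPM in steady state, edgeR adjusted p = 0.0497), lost its call without day 12 replicate 1, 2 or 3 (0.0818, 0.0581 and 0.0936) or steady-state replicate 1, 2 or 3 (0.123, 0.215 and 0.137), and with no filter on low counts (0.166).

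At the cell surface, 0 of 5 genes of class II turnover were called higher and 1 lower. That gene was Cd83, whose product opposes the ubiquitination of class II (0.650 ± 0.121 CPM at day 12, 1.52 ± 0.276 CPM in steady state, log2 fold change -1.22, edgeR adjusted p = 0.0140, but 0.0772 and 0.0519 without steady-state replicates 2 and 3). Marchf1, the ligase that ubiquitinates class II, was not called (91.4 ± 15.03 CPM at day 12, 66.4 ± 7.40 CPM in steady state, edgeR adjusted p = 0.0569). Without day 12 replicate 4, 1 gene of turnover was called higher.

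T cells need co-stimulation beside class II, and of 6 tested co-stimulatory genes 1 was called higher and 1 lower, with a median log2 fold change of -0.04. The adhesion molecule gene Icam1 averaged 60.9 ± 28.6 CPM at day 12 and 28.4 ± 1.11 CPM in steady state (log2 fold change 1.0997, edgeR adjusted p = 0.0337), and its call was lost without any 1 steady-state replicate (0.0999 to 0.112) and with no filter on low counts (0.115). The ICOS ligand gene Icosl averaged 12.4 ± 3.46 CPM at day 12 and 23.5 ± 3.20 CPM in steady state (log2 fold change -0.93, edgeR adjusted p = 0.0112, but 0.0644 without steady-state replicate 1). Cd86, a ligand of CD28, stood at 58.9 ± 19.3 CPM at day 12 and 58.1 ± 3.61 CPM in steady state and was not called (edgeR adjusted p = 0.969), nor were Cd40 and Cd80. Without day 12 replicate 4, 2 of these genes were called lower.

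**Figure D4:**
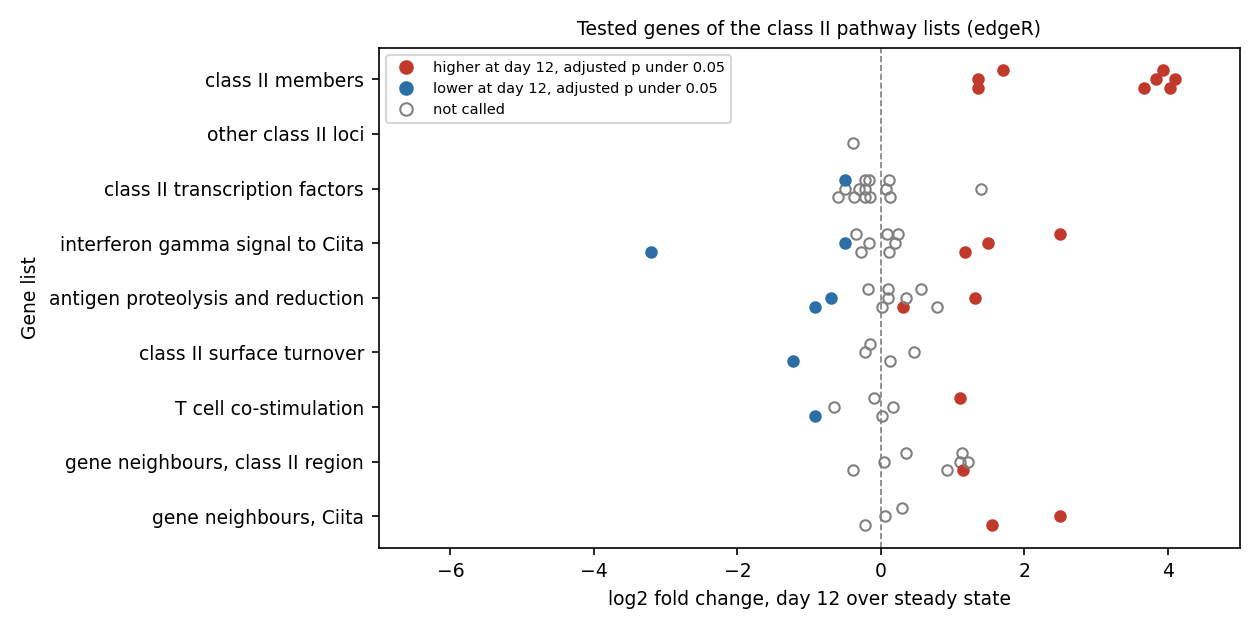
Log2 fold changes, day 12 over steady state, of the tested genes of each list, coloured by the edgeR call. The 8 class II members lie at 1.35 and above, with a median of 3.75. The medians of the transcription factor, interferon gamma signal, proteolysis, turnover and co-stimulation lists lie between -0.22 and 0.10. Those of the other class II loci (1 gene tested), Ciita neighbours and class II region neighbours are -0.39, 0.29 and 1.01. In the other lists Irf1, Socs1, Tvp23a and the uncalled Zbtb32 also lie above 1.35.

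Other cells that carry class II could be in a sort, so their markers are given beside the members. B cell markers were low but higher at day 12. Of the 14 markers 13 were tested, of which 9 were called higher and 0 lower, against 10.1% and 10.2% of all genes tested. They summed to 30.1, 63.0, 29.1 and 27.6 CPM in day 12 replicates 1 to 4, against 12.8, 8.01 and 12.1 CPM in steady-state replicates 1 to 3. Day 12 replicate 2, with the highest B cell sum, had the lowest sum of the 10 members (2264 CPM), and replicate 4, with the lowest B cell sum of its group, had the highest (5608 CPM).

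Of 14 dendritic cell markers 9 were tested, of which 3 were called higher and 1 lower, against 10.1% and 10.2% of all genes tested. Of the 14, 8 were under 1 CPM in all 7 libraries, with Siglech at 0 in each. The list summed to 619 to 974 CPM at day 12 and 436 to 532 CPM in steady state. Most of this sum was Sirpa in every library (485 ± 33.5 CPM at day 12, 376 ± 32.6 CPM in steady state). Cd209a (172 ± 142 CPM at day 12, 37.1 ± 12.1 CPM in steady state) is also in the next list. Of 10 markers of small peritoneal or monocyte-derived macrophages 9 were tested, of which 3 were called higher and 2 lower. They summed to 1551 to 10363 CPM at day 12 and 308 to 377 CPM in steady state. Most of the day 12 sum was Retnla, with 8063, 2484, 9444 and 1171 CPM in day 12 replicates 1 to 4, against 88.5 to 114 CPM in steady state. Plac8 of the same list ran otherwise, with 25.6, 92.1, 4.10 and 143 CPM at day 12 against 0.476 to 1.07 CPM in steady state. It was highest in replicate 4, the library with the most class II reads, and next in replicate 2, the one with the fewest. The 2 markers called lower were Ccr2 (5.19 ± 1.99 CPM at day 12, 11.8 ± 1.24 CPM in steady state) and Folr2 (13.7 ± 1.83 CPM at day 12, 32.9 ± 4.64 CPM in steady state). The part of these cell types in the class II levels was not tested.

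**Figure D5:**
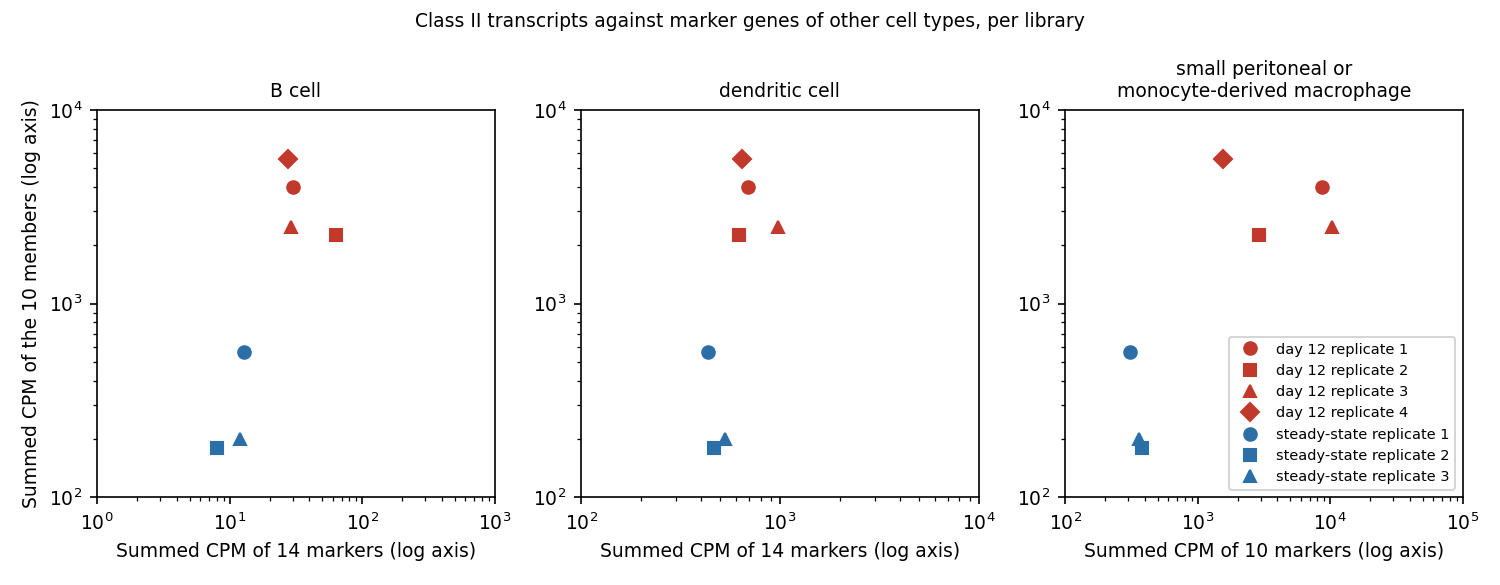
Summed CPM of the 10 members (vertical, log axis) against summed CPM of markers of B cells, dendritic cells and small peritoneal or monocyte-derived macrophages (horizontal, log axis), 1 point per library. All 4 day 12 libraries are above and to the right of all 3 steady-state libraries. Within day 12, replicate 2 has the highest B cell sum and the lowest sum of the members. Sirpa makes up most of the dendritic cell sum. The part of these cell types in the class II levels was not tested.

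The members were also compared in how they varied over the libraries. Over the 7 libraries, the Pearson correlation of log2 CPM with the mean of H2-Aa, H2-Ab1, H2-Eb1 and Cd74 was 0.991 for Ciita, 0.971 for H2-DMb1, 0.957 for H2-DMa, 0.909 for H2-DMb2 and, among the members near the floor, 0.991 for H2-Eb2 and 0.744 for H2-Oa, as a description of libraries that share 2 groups. The 8 genes outside the members that were most alike by this measure were Uqcrfs1, Mpi, Pex11a, Nadsyn1, Myo19, Tmem199, Rccd1 and Plin1, with correlations of 0.981 to 0.992. Of these, Plin1, which encodes a coat protein of lipid droplets, had the largest difference (48.9 ± 29.0 CPM at day 12, 2.24 ± 1.101 CPM in steady state, log2 fold change 4.45, edgeR adjusted p = 0.00230). Pex11a, which encodes a peroxisomal membrane protein, averaged 26.0 ± 4.43 CPM at day 12 and 10.1 ± 1.51 CPM in steady state (log2 fold change 1.36, edgeR adjusted p = 0.000672).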

How the data were processed

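The authors deposited 1 table of raw counts per gene, with 1 column per library, per the file headers, and coordinates in GRCm39. Per the submitters' processing notes, STAR 2.7.11a, SAMtools 1.10, featureCounts of Subread 2.0.6 and DESeq2 1.40.2 were used. For strand setting, annotation and multimapping, no value was given in the sources used here. Per the labels' protocols, the libraries were poly-A selected and directional.

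The counts were tested with edgeR 4.0.16 (quasi-likelihood, robust, R 4.3.3) over the whole table with TMM factors and Benjamini-Hochberg adjustment. Genes passed filterByExpr (minimum count 10, minimum total 15), which kept 15981. The SE of a fold change was calculated back from the test, as the absolute log2 fold change over the square root of its F statistic. The 95% intervals were built from that SE with the t distribution, so both restate the p-value's test. CPM are TMM-normalised, and log2 CPM had a prior count of 2. Alternatives were RLE scaling, DESeq2 1.42.0, limma-voom (limma 3.58.1), other filters, each library left out and a replicate block. Ratios used SciPy 1.17.1. The procedure was tested on simulated data.

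The members, lists and tests were chosen with earlier results of these data known. Named genes are all members, up to 3 called genes of each list in each direction, lowest p first (1 uncalled gene in a list with no call), and the 8 genes most alike. Other genes were chosen after their values were seen. Some items are not reported here. H2-Ea-ps and Cd58, listed too, matched no symbol and are not used here. Markers of T or innate lymphoid cells (10 genes) summed to 0.980 to 4.12 CPM at day 12 and 0.798 to 1.07 CPM in steady state, those of mast cells, eosinophils or neutrophils (11) to 2.75 to 4.14 CPM at day 12 and 2.28 to 2.74 CPM in steady state, and those of mesothelial, epithelial or tumour cells (9) to 2.17 to 3.16 CPM at day 12 and 0.140 to 0.326 CPM in steady state.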

Additional observations from a re-analysis of the deposited data

Results flagged for a closer look

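In 47 groups of 4 day 12 values, 6 held a library whose gap to its nearest neighbour, divided by the whole range, was above Dixon's 95% critical value. Chance gives about 1 in 20. H2-Eb2 stood at 0.261 CPM in day 12 replicate 4 (9 reads, against 6 in each of the others), Icam1 at 104 CPM in replicate 4 and Plin1 at 92.1 CPM in replicate 4. Ctsh was low in day 12 replicate 1 (386 CPM). The log2 ratio of H2-DMa to H2-Ab1 was high in day 12 replicate 2 (-1.89), and the sum of B cell markers was high in the same library (63.0 CPM).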

How the results depend on the processing

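The 8 members tested were called higher under all 13 alternatives, those that leave out a library included, and none reversed. Among other listed genes, 793 of 877 values counted as unchanged, 45 lost the call, 39 gained it and 0 of the called genes reversed. A change of sign in a gene not called with all libraries counted as unchanged. Such changes occurred, as for Cd86, with log2 fold changes of -0.14 to 0.23 over libraries left out. The log2 ratio of Ciita to H2-Ab1 reversed to 0.18 without steady-state replicate 2 (range over libraries left out -0.31 to 0.18). Gene calls over the table were 1616 higher and 1626 lower, and 961 and 907, 899 and 904, or 857 and 904 without steady-state replicates 1, 2 or 3. Replicate numbers are not stated to pair the libraries. Correlations were -0.12, 0.02 and 0.19 for numbers 1, 2 and 3, against -0.23 to 0.21 between unequal numbers. With 3 libraries per group this check cannot exclude a pairing. With a replicate block on libraries 1 to 3, 5 genes of the transcription factor list and 2 co-stimulatory genes were called lower, and 4 proteolysis, 1 turnover and 1 Ciita neighbour gene higher, and Tvp23a lost its call (adjusted p = 0.0642). DESeq2 called 1 turnover gene and 3 class II region neighbours higher. With no filter on low counts, 1 proteolysis, 1 turnover, 0 co-stimulatory and 0 region neighbour genes were higher. A filter of 1 CPM gave 1 turnover and 1 Ciita neighbour gene higher, and limma-voom 1 Ciita neighbour. The cause was not tested. With 1 library left out, calls ranged from 0 to 4 lower for the transcription factor list, 1 to 3 higher and 1 to 3 lower for the interferon gamma signal, 1 to 2 higher for proteolysis, 0 to 1 higher and 0 to 1 lower for turnover, 0 to 1 higher and 0 to 2 lower for co-stimulation, 0 to 5 higher for region neighbours, and 0 to 2 higher and 0 to 1 lower for Ciita neighbours. H2-Oa and H2-Eb2 were limited by depth, with 39 and 27 reads at day 12 and 7 and 2 in steady state.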

Other observations

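Genes that lie among the class II members on chromosome 17 were also examined, since this stretch holds class I peptide-processing genes. Of 15 such genes 8 were tested (median log2 fold change 1.01). Of these, 1 was called higher and 0 lower, near the 10.1% and 10.2% of all genes tested. Psmb9, an immunoproteasome subunit, averaged 87.3 ± 35.1 CPM at day 12 and 39.5 ± 6.37 CPM in steady state (log2 fold change 1.14, edgeR adjusted p = 0.0227, but 0.0907 and 0.0852 without steady-state replicates 2 and 3, and 0.0774 with no filter on low counts). Psmb8 stood at 163 ± 68.4 CPM at day 12 and 86.1 ± 10.5 CPM in steady state (edgeR adjusted p = 0.0561), and the peptide transporter gene Tap1 at 154 ± 71.9 CPM at day 12 and 71.7 ± 11.3 CPM in steady state (0.0599). Without day 12 replicate 3, 5 of these genes were called higher, and without day 12 replicate 4, 2.

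Of the 10 genes nearest to Ciita 5 were tested. Socs1 and Tvp23a were called higher and 0 lower, against 10.1% and 10.2% of all genes tested. Tvp23a averaged 0.645 ± 0.165 CPM at day 12 and 0.218 ± 0.0938 CPM in steady state (log2 fold change 1.55, edgeR adjusted p = 0.0288), and its call was lost without day 12 replicate 1 (0.0515) or steady-state replicate 2 or 3 (0.125 and 0.122). Neither was called without steady-state replicate 2 or 3. Clec16a, next to Ciita, stood at 29.3 ± 0.864 CPM at day 12 and 28.3 ± 0.554 CPM in steady state and was not called (edgeR adjusted p = 0.739).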
